A study of Mus musculus with 4 samples.

Results

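A group of genes that HIF-1 is known to switch on outside glycolysis were followed in haematopoietic stem and progenitor cells of mice. They are Vegfa, Adm, Tdgf1, Bnip3, Bnip3l, Higd1a, Ddit4, Ndrg1, Kdm3a and P4ha1, a list taken by symbol, and all 10 were found among the 19938 genes that the arrays measured with a probe set of 1 symbol. Where a gene had several such probe sets, the one with the highest mean over the 4 arrays stood for it. The cells came from the bone marrow of C57BL/6 (B6) mice aged 8 weeks, of genotype WT or Hif1a-/-, with no treatment named. They were sorted as Lin-c-Kit+Sca-1+ cells (LSK), a gate that holds multipotent progenitors beside stem cells. There were 2 arrays per genotype, called biological replicates and numbered 1 and 2 in each. How Hif1a was deleted, which part of it is missing, in which cells, and whether animals were pooled are not stated in the labels.

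HIF-1 is a transcription factor made of an oxygen-regulated subunit, HIF-1α (Hif1a), and a constant partner (Arnt). In oxygen, prolyl hydroxylases mark HIF-1α for decay. In hypoxia it persists, enters the nucleus and binds the short core motif of hypoxia response elements. The bone marrow is a low-oxygen tissue, and stem cells there are known for HIF activity. Besides glycolysis, HIF targets signal to vessels, trim mitochondria, slow growth and adjust oxygen-using enzymes.

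The promoters show how the members differ in this motif. RefSeq promoter sequences (GRCm38.p6) were given for 8 of the 10 genes, and Bnip3l and Ndrg1 had no entry. In the 250 bases before the most upstream start, 7 of the 8 held ACGTG or GCGTG on either strand. Of 27025 genes, 38.6% held it in the same window, and of the 5184 windows with 60 to 70% G and C, 62.9% did. The members' windows had a median of 64.6% G and C, against 52% for all genes. They ran from 42% to 72.4%, and most lay outside the 60 to 70% band, so it is no close match. Of 42 windows of other HIF targets outside glycolysis, 27 held the motif (64.3%). A match describes letters and is not a binding site. The sequences below belong to the member that separated the array numbers (Tdgf1), those whose genotypes did not overlap and that have a window (Vegfa, Higd1a, P4ha1), and the richest in matches (Bnip3). Capitals mark the motif, as ACGTG or GCGTG or their reverse complements CACGT or CACGC, and CACGTG counts on both strands.
Vegfa, chr17:46032378-46032627 (minus strand): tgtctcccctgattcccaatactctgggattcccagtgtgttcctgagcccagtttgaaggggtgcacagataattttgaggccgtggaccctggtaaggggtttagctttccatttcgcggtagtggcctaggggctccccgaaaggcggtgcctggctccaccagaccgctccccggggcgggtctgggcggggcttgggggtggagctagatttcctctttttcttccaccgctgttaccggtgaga
Tdgf1, chr9:110946159-110946408 (minus strand): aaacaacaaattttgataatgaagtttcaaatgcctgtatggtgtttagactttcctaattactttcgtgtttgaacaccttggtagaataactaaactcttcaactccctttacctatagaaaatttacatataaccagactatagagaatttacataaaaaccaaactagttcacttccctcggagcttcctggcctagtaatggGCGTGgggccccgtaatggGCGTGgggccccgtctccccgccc
Bnip3, chr7:138909507-138909756 (minus strand): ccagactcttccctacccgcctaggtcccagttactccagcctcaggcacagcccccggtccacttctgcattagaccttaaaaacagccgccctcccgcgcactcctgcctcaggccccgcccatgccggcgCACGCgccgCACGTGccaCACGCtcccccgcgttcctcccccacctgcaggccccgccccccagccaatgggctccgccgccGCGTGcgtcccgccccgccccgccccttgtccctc
Higd1a, chr9:121857797-121858046 (minus strand): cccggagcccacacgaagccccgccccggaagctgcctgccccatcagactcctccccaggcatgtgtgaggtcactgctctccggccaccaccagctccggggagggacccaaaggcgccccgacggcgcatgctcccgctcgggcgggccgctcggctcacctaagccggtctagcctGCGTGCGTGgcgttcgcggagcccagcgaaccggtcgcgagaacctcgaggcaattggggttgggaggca
P4ha1, chr10:59323046-59323295 (plus strand): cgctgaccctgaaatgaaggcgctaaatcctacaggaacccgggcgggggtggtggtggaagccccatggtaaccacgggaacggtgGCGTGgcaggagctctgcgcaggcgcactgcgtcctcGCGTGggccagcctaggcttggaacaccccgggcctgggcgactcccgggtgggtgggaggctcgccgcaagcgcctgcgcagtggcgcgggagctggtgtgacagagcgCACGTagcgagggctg
Bnip3 had 5 matches, 2 of which are the strands of 1 CACGTG, and P4ha1 had 3. Higd1a had 2 overlapping matches, which begin at -70 and -66 from the start. Tdgf1 had 2 in a repeated stretch, at -43 and -24, in a window of only 42% G and C. The Vegfa window had none, and its well-known element lies farther upstream than this window reaches. Adm and Ddit4 had 2 matches each and Kdm3a had 1.

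All values below are log2 signals that the authors made with RMA, a method that corrects background, normalizes between arrays and summarises probes, so 1 unit is a doubling. Levels are compared between arrays, never between genes. Hif1a itself read 10.37 (array 1) and 10.99 (array 2) in WT. The arrays labelled Hif1a-/- read 10.58 and 10.64, inside the WT range. Its probe set can lie outside the deleted part, so it does not check the labels. The stem cell marker Kit was 12.57 and 11.51 in WT and 12.37 and 11.32 in the arrays labelled Hif1a-/-. Ly6a, which encodes Sca-1, has no probe set with 1 symbol. The arrays numbered 2 stood apart in both genotypes, with 1108 of 19938 genes differing by number in limma. Each member's genotype difference is therefore also given within each number, and those of other genes only in part.

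No member passed the test between the genotypes, and most differences pointed lower. limma called 0 of 19938 genes at an adjusted p under 0.05 (0% of all genes), and at an unadjusted p under 0.05 it called 145 (0.727%), none of them a member. With trend and robust moderation the counts were 0 and 339. Of the 10 genes 8 were lower in the mean in the arrays labelled Hif1a-/-, against 49.4% of all genes. Their median difference was -0.19, with -0.08 within number 1 and -0.23 within number 2, beside 0.0027 for all genes. Both arrays labelled Hif1a-/- lay below both WT arrays for 3 members (Bnip3l, Higd1a, P4ha1), against 8.33% of all genes, and above them for 1 (Vegfa), against 16.1%. Within number 1, 6 members were lower, against 44.7% of all genes, and within number 2, 8 were, against 49%. The same 6 (Bnip3l, Ddit4, Ndrg1, Higd1a, Kdm3a, P4ha1) were lower within both, against 21% of all genes. The members were picked as a group with earlier results known, and no test over the group was made. With 2 arrays against 2, an exact permutation test of 1 gene cannot go below p = 0.333. In sorted cells, fewer cells of a kind and less RNA per cell cannot be told apart.

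Lists of cell type markers were compared between the genotype labels too, and the B cell list had the largest median difference. In the arrays labelled Hif1a-/-, the mean of each of the 12 B cell markers measured was above that of WT, with a median difference of 0.90. Of these markers 9 were higher without overlap, against 16.1% of all genes. At an unadjusted p under 0.05 limma called 6 of them, against 0.727% of all genes, though none passed. Their summed linear signal was 11165 and 10809 in WT arrays 1 and 2, and 26392 and 16704 with the Hif1a-/- label. Stem and LSK markers were lower for 16 of 17 and erythroid and megakaryocyte markers for 8 of 9, each with a median of -0.21, beside the members' -0.19. In each of these 2 lists 0 genes were lower without overlap (8.33% of all genes) and 1 was higher without overlap (16.1%). Within numbers 1 and 2 the medians were -0.15 and -0.21 for the stem list, and 0.0020 and -0.32 for the erythroid list. Summed signals of the stem and LSK list were 42251 and 22815 in WT against 38311 and 17323, and those of the erythroid list 7091 and 11917 against 7562 and 7772. T and NK markers were higher for 9 of 10 (median 0.20). Neutrophil and granule markers were higher for 10 of 14 (median 0.35), with -0.21 within number 1 and 0.93 within number 2. Monocyte and macrophage markers were higher for 8 of 12 (median 0.25) and mast cell and basophil markers for 8 of 11 (0.042). Endothelial and stromal markers were lower for 6 of 11 (-0.021). The part of these cells in the members' differences was not tested.

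**Figure D1:**
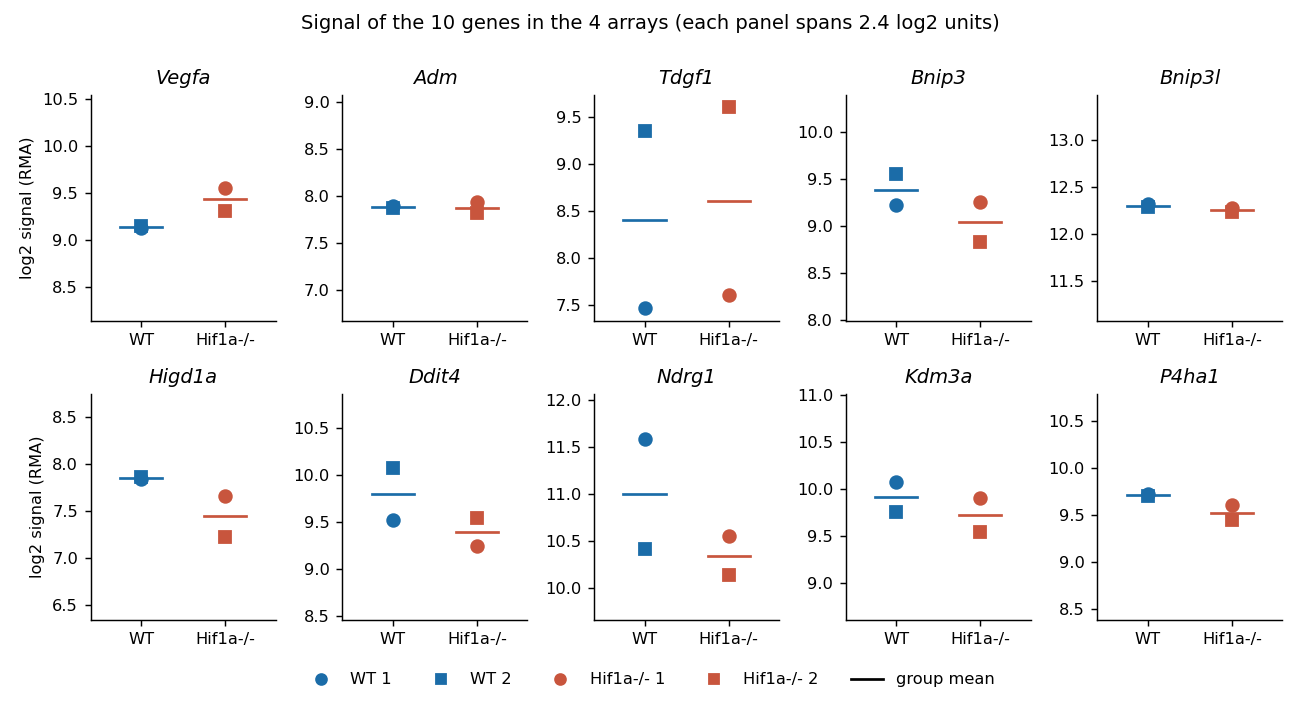
Log2 signal (y axis, each panel spanning 2.4 units) of each gene in WT and Hif1a-/- arrays (x axis), with circles for number 1, squares for number 2 and bars for group means. The WT arrays nearly coincide for Vegfa, Higd1a and P4ha1, while Tdgf1 splits by number in both genotypes, from 7.46 and 7.61 to 9.35 and 9.60.

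Among the secreted factors, Vegfa had the highest difference between genotypes. Vegfa encodes the main growth factor of blood vessels, which stem cells also make for their own survival. Its log2 signal was 9.12 (array 1) and 9.14 (array 2) in WT. It was 9.55 and 9.30 in the arrays labelled Hif1a-/-. Both arrays labelled Hif1a-/- were thus above both WT arrays, against the direction of most members. The difference was 0.30 (SE 0.14, 95% interval -0.09 to 0.68, 1.23-fold), with 0.43 within number 1 and 0.16 within number 2. limma's unadjusted p was 0.0981 and the adjusted p 0.9998. Without array 1 labelled Hif1a-/- the difference was 0.17.

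Adm encodes adrenomedullin, a peptide that widens vessels. It was 7.89 and 7.87 in WT and 7.93 and 7.81 in the arrays labelled Hif1a-/-. The arrays labelled Hif1a-/- lay on either side of the WT pair, with a difference of -0.010 (SE 0.11, 95% interval -0.33 to 0.31). The whole range over the 4 arrays was 0.12.

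Tdgf1 separated the array numbers, while the genotypes overlapped. Tdgf1 encodes Cripto, a membrane-anchored co-receptor for Nodal and related ligands that also binds the chaperone GRP78 (Hspa5) at the cell surface. Its signal was 7.46 in WT array 1 and 7.61 in array 1 labelled Hif1a-/-, against 9.35 and 9.60 in the arrays numbered 2. Both arrays numbered 2 were far above both numbered 1. Number 2 was higher than number 1 by 1.94 (SE 0.13, 95% interval 1.61 to 2.27, 3.84-fold), with an adjusted p of 0.00447 in limma fitted with genotype as a covariate. The step was 3.70-fold in WT and 3.99-fold in the arrays labelled Hif1a-/-. Tdgf1 was the only 1 of the 10 members called by number, against 5.56% of all genes, and it ranked 80 of 19938 by p. Between genotypes it differed by 0.20 (SE 0.98), with 0.14 within number 1 and 0.25 within number 2. That value turned to -0.75 without WT array 1 and to -0.80 without array 2 labelled Hif1a-/-, which unbalance the numbers.

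Markers of mature myeloid cells were higher in the same arrays. Over all genes, 3.29% were called higher in number 2 and 2.27% lower. Of the measured mast cell and basophil markers 7 of 11 were called higher in number 2, and their summed linear signal was 5563 to 7322 in number 1 and 19593 to 21671 in number 2. For neutrophil and granule markers 9 of 14 were called, with sums of 33192 to 39996 and 76228 to 100066. For monocyte and macrophage markers 8 of 12 were called, with sums of 8149 to 8210 and 16875 to 20836. Of the stem and LSK markers 7 of 17 were called lower, and the median difference by number over all 17 was -0.70. Their sums were 38311 to 42251 in number 1 and 17323 to 22815 in number 2. T and NK markers were called higher for 2 of 10, with sums of 7513 to 7822 in number 1 and 9491 to 10088 in number 2. Of 11 endothelial and stromal markers 1 was called higher and 2 lower. Of 12 B cell markers 1 was called lower, and of 9 erythroid and megakaryocyte markers 0 were called. RMA signals have no true zero, so no marker can be said to be absent. The part of these cells in the Tdgf1 difference was not tested. Fcer1a, a receptor chain of mast cells and basophils, read 6.13 and 6.19 in the arrays numbered 1 and 9.18 and 9.15 in those numbered 2. The step of Tdgf1 was 1.94, beside 3.11 for the neutrophil collagenase gene Mmp8 and 2.55 for the monocyte chemokine receptor gene Ccr2. Ncr1, of the T and NK list, differed by 1.90, and Emcn, of the endothelial list, by -2.81. The stem cell factor genes Hlf and Meis1 differed by -2.95 and -2.28.

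**Figure D2:**
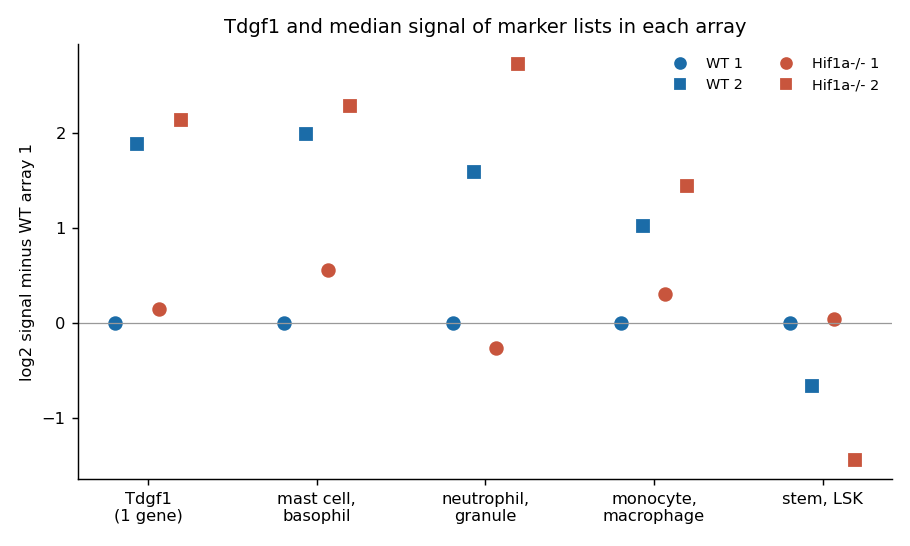
Log2 signal relative to WT array 1 (y axis) of Tdgf1 and, for 4 marker lists, of the list median (x axis), with blue for WT, red for Hif1a-/-, circles for number 1 and squares for number 2. Tdgf1 and the 3 mature myeloid lists are higher in both arrays numbered 2, and the stem and LSK list is lower there.

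The genes whose 4 values most resembled those of Tdgf1 were Asb2 and Irf5, after each gene was centred on its own mean. Their root mean square distances from it were 0.037 and 0.048 log2 units over 4 arrays. Asb2 read 8.66 (array 1) and 10.50 (array 2) in WT, and in the arrays labelled Hif1a-/- it read 8.70 and 10.77.

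Of the receptors and partners of these 3 proteins, none passed between the genotypes. Of 20 measured genes 10 were lower and 10 higher in the mean, with a median of 0.024. Gdf3, a ligand of the Nodal group, differed by -0.48 (SE 0.22) without overlap, and Ramp1, part of receptors for adrenomedullin-like peptides, by -0.47 (SE 0.40). On the other side, the adrenomedullin relative Adm2 was at 0.18 and Nodal at 0.13. Hspa5 was 12.70 and 13.25 in WT and 12.65 and 13.26 in the arrays labelled Hif1a-/-, so the genotypes overlapped. By number, 1 of the 20 was called higher, against 3.29% of all genes, and 1 lower, against 2.27%. The higher was the VEGF co-receptor gene Nrp1 (1.40, adjusted p = 0.0100 in limma). The lower was Calcrl, the receptor of adrenomedullin (-1.67, adjusted p = 0.0107 in limma). These were named after their values were seen.

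Among the mitochondrial members, Higd1a had the lowest mean difference, and its probe sets disagreed. Higd1a encodes a small inner-membrane protein that helps respiratory complexes assemble and protects cells in hypoxia. It was 7.84 and 7.86 in WT and 7.66 and 7.21 in the arrays labelled Hif1a-/-. The WT arrays were nearly equal and both above the others. The difference was -0.41 (SE 0.19, 95% interval -0.94 to 0.12, 1.33-fold), with -0.18 within number 1 and -0.65 within number 2, and an unadjusted p of 0.0960 in limma (adjusted p 0.9998). It was -0.63 without array 1 labelled Hif1a-/- and -0.19 without array 2 of that label. A further probe set of the gene read 7.49 and 7.17 in WT and 7.84 and 7.13 in the arrays labelled Hif1a-/-. There the genotypes overlapped and the difference was 0.15, the opposite sign.

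Bnip3 and Bnip3l encode related outer-membrane receptors that hand mitochondria to autophagy, Bnip3l (NIX) above all in maturing red cells. Bnip3 was 9.22 and 9.55 in WT and 9.25 and 8.83 in the arrays labelled Hif1a-/-. The arrays numbered 1 were alike and those numbered 2 were not. Bnip3 differed by -0.35 (SE 0.22, 95% interval -0.95 to 0.25), made up of 0.028 within number 1 and -0.72 within number 2. Without WT array 2 it was -0.18, and without array 1 or 2 labelled Hif1a-/- it was -0.56 or -0.14. Its other probe set differed by -0.11, with -0.18 within number 1 and -0.042 within number 2, so the 2 probe sets place the difference in different arrays. That probe set read 8.676 and 8.500 in WT and 8.496 and 8.458 in the arrays labelled Hif1a-/-, narrowly without overlap. Which members did not overlap thus depended on the probe set. The number 2 difference rested on the probe set used.

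Bnip3l was the flattest of the members. Its signals were 12.32 and 12.28 in WT and 12.27 and 12.24 in the arrays labelled Hif1a-/-. Their range was 0.078. The groups did not overlap, but by a difference of only -0.044 (SE 0.11, 95% interval -0.34 to 0.25), and its sign turned under quantile normalization (0.014) and cyclic loess (0.041). Within number 1 and within number 2 the difference was -0.044. The other probe set of Bnip3l differed by -0.089.

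**Figure D3:**
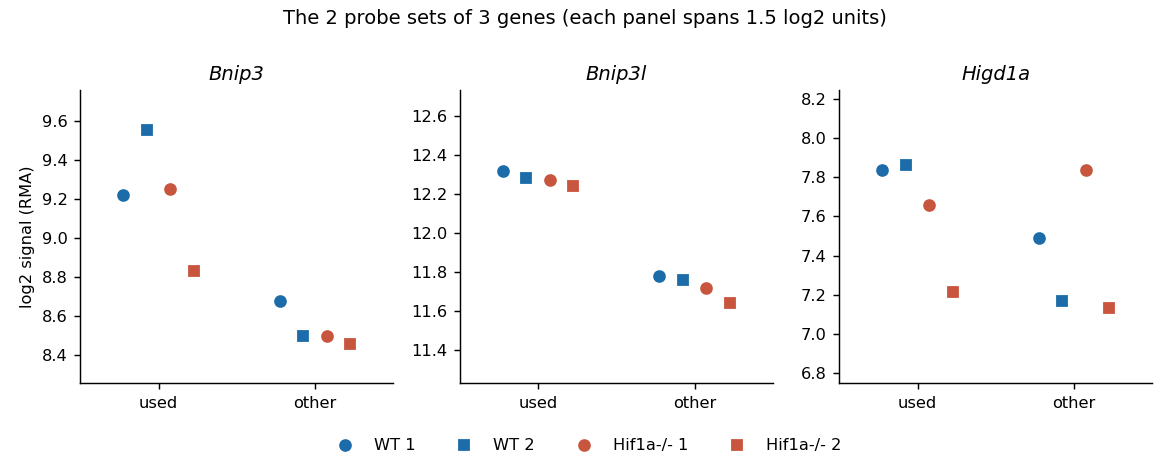
Log2 signal (y axis, each panel spanning 1.5 units) of both probe sets of Bnip3, Bnip3l and Higd1a (x axis, the one used and the other), with blue for WT, red for Hif1a-/-, circles for number 1 and squares for number 2. For Higd1a the array 1 labelled Hif1a-/- lies below WT array 1 in the probe set used and above it in the other (7.66 and 7.84).

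Genes of mitophagy and relatives of these 3 members gave 15 lower and 7 higher of 22 measured, with a median of -0.09. None passed between genotypes. Map1lc3b, the LC3 protein that BNIP3 receptors bind, differed by -0.35 (SE 0.20) without overlap, with -0.0285 within number 1 and -0.67 within number 2. Pink1, a kinase that marks damaged mitochondria, differed by -0.35 (SE 0.31), with -0.21 and -0.48. Bcl2l1, which encodes the survival protein BCL-XL, was 8.57 and 8.57 in WT and 8.91 and 8.89 in the arrays labelled Hif1a-/-. It was 0.33 higher in the mean (SE 0.11, unadjusted p 0.0346 in limma) and the only gene of this list under 0.05 before adjustment. Bnip2 was at 0.17.

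The stress-response members Ddit4 and Ndrg1 had large differences and large spreads. Ddit4 encodes REDD1, which restrains the growth kinase complex mTORC1 through TSC1 and TSC2. Its signal was 9.53 and 10.08 in WT and 9.25 and 9.55 in the arrays labelled Hif1a-/-. WT array 2 was highest, and array 2 labelled Hif1a-/- lay just above WT array 1, so the groups overlapped. The genotypes differed by -0.41 (SE 0.25, 95% interval -1.10 to 0.28), with -0.28 within number 1 and -0.53 within number 2. It was -0.68 without WT array 1, -0.13 without WT array 2 and -0.25 without array 1 labelled Hif1a-/-, omissions that unbalance the numbers. By number Ddit4 was at 0.43 (SE 0.14, adjusted p 0.187 in limma), higher in number 2 in both genotypes.

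Ndrg1 encodes a stress-induced protein tied to differentiation and vesicle traffic. It was 11.59 and 10.42 in WT, and 10.55 and 10.15 in the arrays labelled Hif1a-/-. WT array 1 stood alone above the other arrays. The difference of -0.65 (SE 0.45, 95% interval -1.90 to 0.60, 1.57-fold) was the lowest among the members, with -1.03 within number 1 and -0.27 within number 2. Without WT array 1 it was -0.070 and without WT array 2 it was -1.23, omissions that unbalance the numbers. The value within number 2 (-0.27) does not use WT array 1. Ndrg1 was at -0.78 by number (SE 0.21), which did not pass (adjusted p 0.122 in limma) but passed under quantile normalization (-0.84, adjusted p 0.0488).

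Genes around mTORC1 and stress responses, with relatives of both members, were mostly flat between genotypes. Of 20 measured, 12 were lower and 8 higher, with a median of -0.055 and none past the test. Ndrg2 differed by -0.23 (SE 0.11) without overlap, while Ndrg4 was at 0.074. Ndrg3 differed by -0.30 (SE 0.25), with 0.018 within number 1 and -0.63 within number 2. The kinase gene Sgk1, whose protein phosphorylates NDRG1, was at 0.55 (SE 0.78), 7.79 and 9.50 in WT and 8.52 and 9.87 in the arrays labelled Hif1a-/-. Sgk1 was called higher in number 2 (1.53, adjusted p = 0.00996 in limma), whereas Sesn1 and Txnip were called lower (-1.57 and -0.96), the last 2 named after their values were seen.

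**Figure D4:**
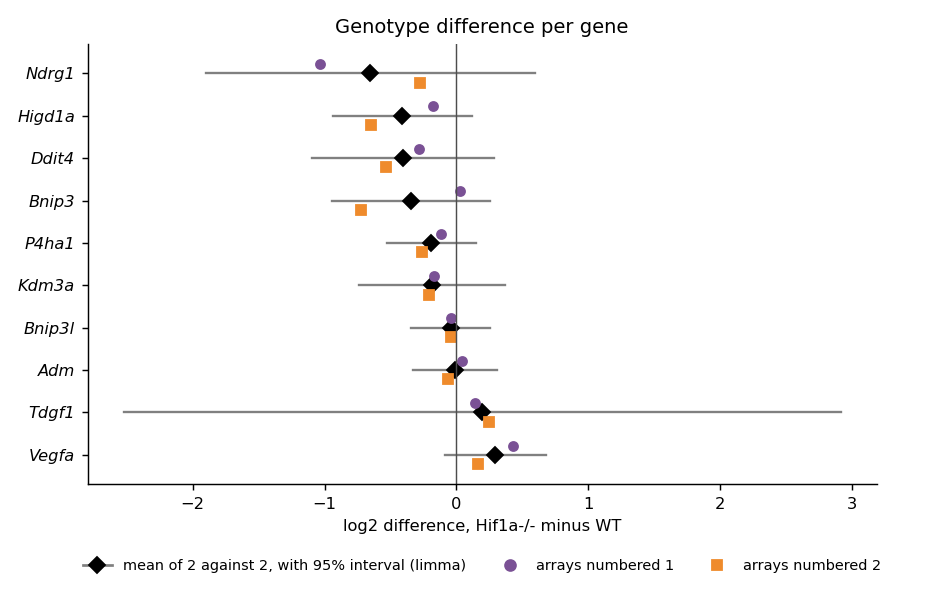
Log2 difference between Hif1a-/- and WT arrays (x axis) for each gene (y axis), with diamonds for the mean of 2 against 2 arrays, lines for limma's 95% interval, circles for number 1 and squares for number 2. Every interval spans 0, that of Tdgf1 being the widest (-2.52 to 2.92), and the number 1 and number 2 points of Bnip3 lie apart (0.028 and -0.72).

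P4ha1 and Kdm3a encode enzymes that use oxygen and 2-oxoglutarate. P4ha1, the catalytic subunit of collagen prolyl 4-hydroxylase, was 9.73 and 9.71 in WT and 9.61 and 9.45 in the arrays labelled Hif1a-/-. Both WT arrays were nearly equal and above the others. The difference was -0.19 (SE 0.12, 95% interval -0.53 to 0.15, 1.14-fold), with -0.12 within number 1 and -0.26 within number 2. It was -0.16 under quantile normalization, -0.14 under cyclic loess and -0.28 under median centring. With 1 array left out it ran from -0.27 to -0.11. As the groups do not overlap, leaving out an array could not turn its sign.

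Kdm3a encodes a demethylase of lysine 9 on histone H3. It was 10.07 and 9.75 in WT and 9.90 and 9.54 in the arrays labelled Hif1a-/-. The arrays numbered 1 were above those numbered 2 in both genotypes, and the genotypes overlapped. The genotype difference was -0.19 (SE 0.20, 95% interval -0.74 to 0.37), with -0.17 within number 1 and -0.21 within number 2. It was -0.028 without WT array 1 and -0.35 without WT array 2, and -0.36 or -0.0088 without array 1 or 2 labelled Hif1a-/-. Leaving out an array unbalances the numbers. By number it was -0.34 (SE 0.13, adjusted p 0.263 in limma).

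Of 24 measured relatives and partners of these enzymes, 12 were lower and 12 higher, with a median of 0.0029. Plod2, a lysyl hydroxylase of collagen, differed by -0.34 (SE 0.22) and the collagen prolyl 3-hydroxylase gene P3h1 by -0.17 (SE 0.12), both without overlap. The histone demethylase gene Kdm4d was at 0.21 and Tet2, an oxidase of methylated DNA, at 0.13. None passed between the genotypes.

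Other known HIF targets outside glycolysis pointed the same way in the mean. Of 54 measured genes of 55 listed, 38 were lower and 16 higher (49.4% of all genes were lower), with a median of -0.10 (-0.032 within number 1, -0.12 within number 2). None passed, 8 were lower without overlap (8.33% of all genes) and 1 was higher without overlap (16.1% of all genes). Stem and LSK markers leaned the same way by more in the median (-0.21), as given above, though 0 of them were lower without overlap. Egln3, a HIF prolyl hydroxylase and itself a target, was 10.40 and 10.61 in WT. It read 10.18 and 9.35 in the arrays labelled Hif1a-/-, a shift of -0.74 in the mean (SE 0.32). Ak4, an adenylate kinase of mitochondria, was at -0.85 (SE 0.48), with -0.32 within number 1 and -1.39 within number 2. Cited2, which competes with HIF-1 for its coactivator, was at -0.27 (SE 0.14), with -0.43 and -0.11. The vessel factor genes Angpt2 and Pdgfb were at 0.18 and 0.17, and Tmem45a at 0.085. By number, 6 of the 54 were called higher in number 2, against 3.29% of all genes, and 1 lower, against 2.27%.

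**Figure D5:**
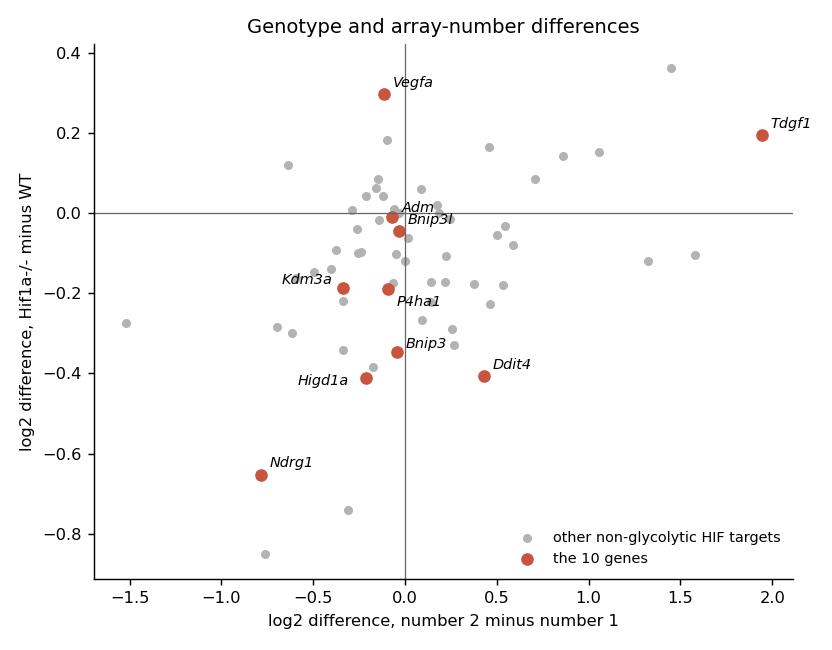
Log2 difference between array numbers (x axis) and between genotypes (y axis) for the 10 genes (red, named) and the other HIF targets outside glycolysis (grey). Tdgf1 lies far right at 1.94 and 0.20, Ndrg1 low and left at -0.78 and -0.65, and most points lie below the line of equal genotypes.

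Array numbers without overlap were about as frequent among the members as among all genes. Both arrays numbered 2 were above both numbered 1 for 2 members (Ddit4, Tdgf1), against 20.4% of all genes. They were below for 3 (Adm, Ndrg1, Kdm3a), against 27.2%. At an unadjusted p under 0.05 limma called 4 members, against 18% of all genes. The members' median difference by number was -0.08, beside -0.024 for all genes.

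Over the 4 arrays, 5 members had a range of at least 1.5-fold, against 23.2% of all genes: Bnip3, Ddit4, Ndrg1, Higd1a and Tdgf1. The gene with values most like Bnip3 was Atpaf1, an assembly factor of ATP synthase, at a root mean square distance of 0.00245 over the 4 arrays, followed by Cr1l (0.0093). Ddit4 was closest to Serpina1c (0.019) and Gata1 (0.028), Higd1a to Fah (0.014) and Lipo3 (0.023), and Ndrg1 to Cyp2r1 (0.13) and Gulp1 (0.17). Such distances over 4 arrays only describe these arrays. Among the members themselves, Adm and Bnip3l were the closest pair (0.035), both being nearly flat, and Bnip3 and Higd1a were at 0.11, both with array 2 labelled Hif1a-/- lowest.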

How the data were processed

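Total RNA of sorted LSK cells was amplified, labelled with biotin and hybridised to 4 Affymetrix whole-transcript arrays, per the labels' protocols. The authors deposited log2 signals of 35556 probe sets. They used Affymetrix Expression Console 1.1 and RMA, as the submitters' processing notes list. That the scale is log2 follows from the values, which lie between 3.08 and 14.88. RMA normalizes between arrays, so a change common to all genes is removed, and the number of arrays limits the precision.

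Genes were named from the 21789 probe sets with 1 symbol, taking the highest mean per gene (19938 genes, no filter on dim ones). limma 3.58.1 (R 4.3.3) compared the genotypes with lmFit and eBayes, two-sided and without covariates, and array numbers with genotype as a covariate, Benjamini-Hochberg adjusted over all genes at 0.05. The steps were tested on simulated data. Nothing says that arrays came from separate animals beyond "biological", so p-values measure only the spread between these samples. The members and lists were chosen with earlier results of these data known. Named are all members, Hif1a and, per list, the genes with the smallest p in each direction (2, or 3 for other HIF targets). From marker lists only some of the genes with the largest differences by number are named. Hspa5 and Kit were named beyond this rule. B cell and erythroid markers are given as lists. Older symbols in the lists were matched through RefSeq synonyms. Alternatives were the replicate block, each array left out, quantile normalization, cyclic loess, median centring, a filter on the dimmest 40% of genes, averaged probe sets, trend and robust moderation and, added after seeing the data, the other probe set of 3 members and the members' differences by number.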

Additional observations from a re-analysis of the deposited data

How the results depend on the processing

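Between genotypes, 0 genes passed under every alternative run. Genes at an unadjusted p under 0.05 numbered 145, 478 with the replicate block (Ndrg1 and Ddit4 among them, p 0.0253 and 0.0314, adjusted p 0.980), 339 with trend and robust moderation, 39 without the dimmest 40% of genes, and 57 to 622 with 1 array left out. Members lower in the mean numbered 8, and 7 under quantile normalization and under cyclic loess (medians -0.16 and -0.13). With an array left out they numbered 8 to 9. Of the 8 that pass the filter on dim genes, which Adm and Higd1a do not, 6 were lower. The members' median of -0.19 ranged from -0.26 to -0.12 with an array left out, and that of the other HIF targets (-0.10) from -0.13 to -0.046. Median centring gave -0.28 and -0.19, and moved the median of all genes from 0.0027 to -0.08. Signs turned for Bnip3l under quantile normalization (0.014) and cyclic loess (0.041), for Higd1a with its other probe set (0.15), for Adm with an array left out (-0.070 to 0.049) and for Tdgf1 (-0.80 to 1.19). The cause was not tested, and leaving out 1 array unbalances the numbers. Genes past the threshold by number were 1108, and 1777 under quantile normalization. The Tdgf1 difference by number kept its side of the threshold under the 5 alternatives run. With 1 array left out, number and genotype leave no residual degrees of freedom, and that fit was not run.

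The replicate numbers are only shared numbers, since the labels do not say that they mark a litter, batch or day. Deviations of same-numbered arrays from their group means correlated at 0.67 over 19938 genes, a value that 2 pairs share by construction. With the number as a block, 0 genes passed and no member's difference changed its side of the threshold.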

Other observations

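Relatives of the members among the oxygen-dependent enzymes also separated the array numbers, and are named here after their values were seen. P3h2, a collagen prolyl 3-hydroxylase gene, was 7.92 (array 1) and 9.90 (array 2) in WT. It was 7.96 and 10.28 in the arrays labelled Hif1a-/-. It was higher in number 2 by 2.15 (SE 0.15, adjusted p = 0.00456 in limma). Tet1, an oxidase of methylated DNA, was 11.64 and 9.52 in WT against 11.39 and 9.38 with the Hif1a-/- label, and at -2.07 by number (adjusted p = 0.00403). The histone demethylase gene Kdm5b was at -1.19 by number (adjusted p = 0.0134). These 3 were the called genes of 24 measured, 1 higher and 2 lower, against 5.56% of all genes in either direction.

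Other HIF targets called higher in number 2 were the haem-degrading enzyme gene Hmox1 (1.45), the repressor gene Bhlhe40 (1.58), the disulfide oxidase gene Ero1a (1.32), Fos (1.06), Btg1 (0.86) and Rbpj (0.71), and the lipoprotein receptor gene Vldlr was lower (-1.52). Among mitophagy genes, the autophagy kinase gene Ulk1 and the survival gene Bcl2 were lower in number 2 (-0.86 and -1.19). They were also named after their values were seen. Mature myeloid markers were higher in the same arrays, and their part in these differences was not tested.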
